A study of Homo sapiens with 6 samples.

Results

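Ribosome biogenesis and nucleolar genes were described here as a set of 35 genes, found in the deposited count table by matching listed symbols to Ensembl gene identifiers. All 35 were among the 60664 genes of the table and all 35 passed the expression filter, which left 17638 tested genes. The series holds 6 mRNA libraries of cultured HCT8 cells, a line from human colorectal cancer, grown in DMEM with 10% serum. 3 libraries received a control plasmid (genotype label WT) and 3 a GPT1 overexpression plasmid. GPT1 (symbol GPT) converts alanine and 2-oxoglutarate to pyruvate and glutamate in the cytosol, and the stated purpose of the series was to find a signalling pathway that GPT1 regulates. The labels give no time after transfection, and no source names the promoter of the plasmid or says that the replicates came from separate cultures, so the p-values measure only the spread between these libraries, which may be technical.

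Ribosomes are built mainly in the nucleolus. RNA polymerase I transcribes a long ribosomal RNA precursor, small nucleolar ribonucleoproteins (snoRNPs) guide its chemical modification and early cleavage, and large assemblies of processing factors, helicases and GTPases shape the small (40S) and large (60S) subunits before export to the cytoplasm. The genes for these factors are known to be expressed together in growing cells, and the transcription factor MYC is a well-known activator of many of them.

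The label of the GPT1 libraries was checked on GPT itself, which had 3 to 14 counts in the controls and 96886 to 106063 counts in the GPT1 libraries. Total counts ranged from 21255655 (control replicate 3) to 32487217. The colorectal label was in part not matched by its markers. Of 12 epithelial and intestinal markers, KRT20, CDX1, CEACAM5 and GPA33 stood under 1 CPM (the count scaled by library size and TMM factors) in both groups and 7 of 8 tested were lower in the GPT1 libraries (their sum ran from 882 to 1036 CPM over the controls and from 562 to 632 CPM with GPT1). EPCAM went from 24.9 ± 1.15 to 9.28 ± 0.437 CPM, CDH1 from 50.1 ± 6.26 to 12.5 ± 1.74 CPM, KRT8 from 529 ± 45.3 to 352 ± 19.3 CPM and KRT18 from 261 ± 25.8 to 171 ± 12.6 CPM, whereas CDX2 stood at 41.7 ± 4.47 and 45.3 ± 3.56 CPM (SD, n = 3 per group). Among 9 neural and kidney-line markers, summed at 501 to 583 CPM in the controls and 291 to 303 CPM with GPT1, NEFM, NEFL and 1 other gene were lower. The neurofilament genes NEFM and NEFL are no markers of intestinal epithelium, and they stood at 293 ± 41.7 and 152 ± 4.61 CPM in the controls, so HCT8 is used here as the name on the label. Fibroblast markers summed to 52.9 to 55.9 and 66.8 to 68.8 CPM, with 3 of 6 tested called higher in the GPT1 libraries and the other 3 not passing. Leukocyte markers summed to 3.91 to 4.72 and 3.43 to 3.90 CPM, with 1 of 3 tested lower, and the summed endothelial markers stayed under 1 CPM. FAP and CD3E had no count in any library. The part that these markers' shifts may have in the results on ribosome biogenesis genes was not tested, and in bulk RNA fewer cells of a type and less RNA per cell cannot be told apart.

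Upstream sequences were available for 29 of the 35 genes in RefSeq (GRCh38.p14), 250 bases before the transcription start. The letters CCGGAAG, a core recognised by ETS-family factors, were present on either strand in 10 of these 29 windows (34.5%), in 34 of 88 windows of other small and large subunit biogenesis factors (38.6%) and in 14.8% of 12303 windows of tested genes (8.82% of all 27305 windows of this length). The E-box letters CACGTG, recognised by MYC with MAX and by other factors, were in 2 of 29 windows (UTP20 and UTP4; 6.90%), against 8.72% of windows of tested genes. The letters CCAAT were in 9 of 29 (31.0%, against 34.7%) and AAGATGGC in 1 (3.45%, against 1.77%), all searched on both strands. The ETS letters were upstream of 4 of the 9 genes that were higher in the GPT1 libraries (GAR1, NIP7, POLR1C and RRP9), of 1 of the 3 that were lower (DDX21) and of 5 of 17 others with a window. A match is a description of letters, and no binding was measured. Bases after the start, and those before other starts of the same gene, were not searched. GAR1 and RRP9, which rose, DDX21, which fell, and FBL, which fell only in a fit corrected for transcript length and GC content, show that the same letters stood upstream of genes with different responses. The stretches outside any annotated exon are given 5′ to 3′ on the gene's strand, with CCGGAAG or its reverse complement CTTCCGG in capitals.
GAR1 (chr4:109815411-109815509, plus strand): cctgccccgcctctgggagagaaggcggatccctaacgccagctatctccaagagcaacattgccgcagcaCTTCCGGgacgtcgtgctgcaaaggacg
RRP9 (chr3:51941942-51942154, minus strand): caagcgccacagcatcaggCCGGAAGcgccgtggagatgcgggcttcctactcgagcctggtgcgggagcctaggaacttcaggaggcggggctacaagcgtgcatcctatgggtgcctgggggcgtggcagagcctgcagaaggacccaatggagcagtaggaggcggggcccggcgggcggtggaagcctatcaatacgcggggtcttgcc
DDX21 (chr10:68955920-68956127, plus strand): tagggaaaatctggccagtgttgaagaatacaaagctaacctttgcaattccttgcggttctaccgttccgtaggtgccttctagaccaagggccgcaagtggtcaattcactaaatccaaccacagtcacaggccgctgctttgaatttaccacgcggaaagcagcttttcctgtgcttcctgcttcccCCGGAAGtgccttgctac
FBL (chr19:39846415-39846629, minus strand): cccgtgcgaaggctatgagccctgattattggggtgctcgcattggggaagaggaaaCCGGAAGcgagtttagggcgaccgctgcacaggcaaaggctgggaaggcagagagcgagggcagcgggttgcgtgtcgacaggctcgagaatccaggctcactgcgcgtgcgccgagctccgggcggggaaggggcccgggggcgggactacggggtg

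Most of the 35 genes differed little between the groups. 9 were higher in the GPT1 libraries, 3 were lower and 23 did not pass the threshold. The threshold was an adjusted p under 0.05 (edgeR quasi-likelihood test, Benjamini-Hochberg over all 17638 tested genes). Of the 35, 14 had an unadjusted p under 0.05, the highest of them that of RRS1 (edgeR unadjusted p = 0.0498). RRS1 ranked 7059 by p among the 17638 tested genes, so a similar share of all tested genes passed that cutoff. Of all tested genes 10.5% were called higher, 14.6% lower and 25.1% in either direction, and among the 35 these shares were 25.7%, 8.57% and 34.3%. The median log2 fold change (GPT1 over control) was 0.11 for the 35 genes and -0.02 for all tested genes, and 24 of the 35 values were above 0. 20 of the 35 lay within 0.2 of 0 on the log2 scale, and PPAN was the single gene past a 1.5-fold change. The ranges of the groups did not overlap for 14 of the 35 (40%), 11 with GPT1 higher and 3 with GPT1 lower, while 43.4% of all tested genes showed such a separation (21.2% with GPT1 higher and 22.2% lower). Summed over the 35 genes, the mean level was 8254 ± 251 CPM for controls and 8024 ± 194 CPM with GPT1, and no test was run on this sum.

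**Figure D1:**
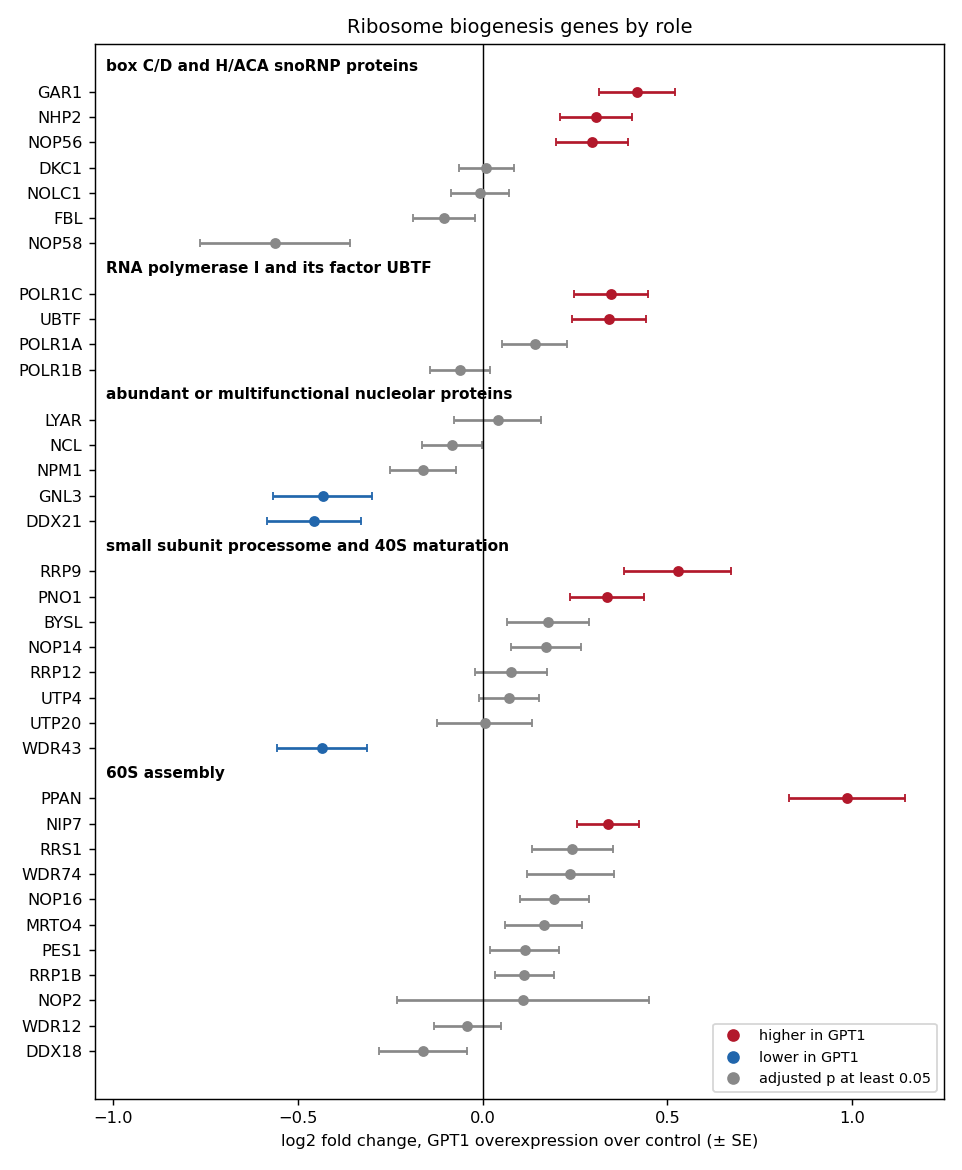
Log2 fold change of each of the 35 genes (horizontal axis, GPT1 overexpression over control, n = 3 libraries per group, bars are SE of the edgeR fit), grouped by role. Red points were called higher (9 genes), blue points lower (3 genes) and grey points did not pass an adjusted p of 0.05, and most grey points lie close to 0.

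The snoRNP proteins held 3 of the 9 genes that rose (3 of 7 in the group, beside 10.5% of all tested genes). Box C/D snoRNPs methylate ribosomal RNA and box H/ACA snoRNPs convert uridine to pseudouridine, and each class has a common protein core. GAR1 (chromosome 4, 109815510 to 109824740, plus strand), an H/ACA core protein, stood at 63.0, 72.3 and 59.7 CPM in control replicates 1 to 3 and 86.6, 79.7 and 94.2 CPM in GPT1 replicates 1 to 3. Every GPT1 library was above every control (log2 fold change 0.42 ± 0.10 SE, edgeR adjusted p = 0.0173). NHP2 (chromosome 5, 178149460 to 178153967, minus strand), another H/ACA core protein, stood at 215, 229 and 183 CPM in control replicates 1 to 3 and 276, 242 and 258 CPM in GPT1 replicates 1 to 3. The groups did not overlap, and the rise was small (log2 fold change 0.31 ± 0.10 SE, edgeR adjusted p = 0.0413). NOP56 (chromosome 20, 2652145 to 2658393, plus strand), a box C/D core protein, stood at 254, 289 and 226 CPM in control replicates 1 to 3 and 327, 300.4 and 316 CPM in GPT1 replicates 1 to 3. Here, too, the groups were apart (log2 fold change 0.30 ± 0.10 SE, edgeR adjusted p = 0.0451).

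The partners of these proteins in the same particles did not pass. DKC1, the pseudouridine synthase of the H/ACA core (also called dyskerin), stood at 323 ± 8.76 and 325 ± 11.8 CPM in the controls and the GPT1 libraries (log2 fold change 0.01 ± 0.07). NOLC1, a chaperone of snoRNPs, stood at 384 ± 5.54 and 382 ± 26.4 CPM (-0.01 ± 0.08). FBL (fibrillarin), the methyltransferase of the C/D core, stood at 624, 646 and 573 CPM in control replicates 1 to 3 and 604, 539 and 571 CPM in GPT1 replicates 1 to 3. Its groups overlapped (log2 fold change -0.11 ± 0.08 SE, edgeR adjusted p = 0.365). NOP58, the C/D partner of NOP56, stood at 105, 121 and 184 CPM in control replicates 1 to 3 and 76.3, 117 and 84.6 CPM in GPT1 replicates 1 to 3. Control replicate 3 was far above the other controls, and the groups overlapped, with GPT1 replicate 2 above control replicate 1 (log2 fold change -0.56 ± 0.20 SE, edgeR adjusted p = 0.0627). When control replicate 1 or 2 or GPT1 replicate 2 was left out, and in DESeq2 (adjusted p = 0.0261), NOP58 passed as lower. NOP56 and NOP58 therefore had estimates of opposite sign, although the proteins share a particle, and the difference between these genes was not tested. Summed over the 7 snoRNP genes, the level was 1988 ± 76.4 and 2031 ± 40.4 CPM.

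For RNA polymerase I, 2 of 4 genes rose, beside 10.5% higher among all tested genes. POLR1C (chromosome 6, 43509702 to 43562419, plus strand), a subunit shared by RNA polymerases I and III, stood at 48.1, 51.1 and 44.9 CPM in control replicates 1 to 3 and 61.9, 55.4 and 66.1 CPM in GPT1 replicates 1 to 3, with every GPT1 library above every control (log2 fold change 0.35 ± 0.10 SE, edgeR adjusted p = 0.0302). Of its exonic bases 18.2% lie opposite exons of other genes, so its level and call are uncertain without a stated strand setting. UBTF (chromosome 17, 44205033 to 44221626, minus strand), which binds the ribosomal DNA and recruits the polymerase, stood at 149, 158 and 122 CPM in control replicates 1 to 3 and 187, 173 and 183 CPM in GPT1 replicates 1 to 3 (log2 fold change 0.34 ± 0.10 SE, edgeR adjusted p = 0.0315). Its groups did not overlap either, and control replicate 3 was its lowest library. The genes of the largest catalytic subunits, POLR1A and POLR1B, stood at 162 ± 14.8 and 178 ± 7.43 CPM and 122 ± 2.96 and 117 ± 7.64 CPM and did not pass (log2 fold change 0.14 ± 0.09 and -0.06 ± 0.08, adjusted p = 0.255 and 0.603, edgeR).

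Of the 5 abundant or multifunctional nucleolar proteins 2 were lower and the other 3 did not pass, beside 14.6% lower among all tested genes. DDX21 (chromosome 10, 68956128 to 68985073, plus strand), an RNA helicase that acts in ribosomal RNA transcription and processing, stood at 526, 480.4 and 666 CPM in control replicates 1 to 3 and 351, 425 and 442 CPM in GPT1 replicates 1 to 3. All GPT1 libraries were below all controls, and control replicate 3 was the highest library (log2 fold change -0.46 ± 0.13 SE, edgeR adjusted p = 0.0263). GNL3 (chromosome 3, 52681156 to 52694492, plus strand), which encodes the nucleolar GTPase nucleostemin, stood at 223, 249 and 323 CPM in control replicates 1 to 3 and 179, 221 and 188 CPM in GPT1 replicates 1 to 3. GPT1 replicate 2 and control replicate 1 nearly touched, without overlap (log2 fold change -0.43 ± 0.13 SE, edgeR adjusted p = 0.0371). NPM1 (nucleophosmin), a histone and ribosomal protein chaperone, stood at 1600.2, 1754 and 1916 CPM in control replicates 1 to 3 and 1532, 1637 and 1543 CPM in GPT1 replicates 1 to 3. Its groups overlapped and it did not pass (log2 fold change -0.16 ± 0.09 SE, edgeR adjusted p = 0.2005). GENCODE 29 names 45 pseudogenes of NPM1, whose summed counts were 2.06% to 2.59% of the NPM1 count in the 6 libraries, so reads that such copies share with NPM1 could be split. NCL (nucleolin), an RNA-binding protein of the nucleolus, stood at 1258, 1274 and 1307 CPM in control replicates 1 to 3 and 1123, 1237 and 1264 CPM in GPT1 replicates 1 to 3. GPT1 replicate 3 lay above control replicate 1, and the difference was within the spread (log2 fold change -0.08 ± 0.08 SE, edgeR adjusted p = 0.468). LYAR, a nucleolar zinc finger protein, stood at 36.4 ± 4.35 and 37.4 ± 3.06 CPM (0.04 ± 0.12). Per kilobase of the longest transcript, NPM1 was the most abundant of the 35 genes in the controls (999 CPM per kb), followed by FBL (439) and NCL (317), and these 3 did not pass.

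For the small subunit, 2 of 8 genes rose and 1 fell, beside 10.5% higher and 14.6% lower among all tested genes. RRP9 (chromosome 3, 51933430 to 51941941, minus strand), a protein of the U3 snoRNP that directs early cleavage of the precursor, stood at 53.2, 69.8 and 45.5 CPM in control replicates 1 to 3 and 87.9, 72.0 and 83.4 CPM in GPT1 replicates 1 to 3. The lowest GPT1 library was just above the highest control, control replicate 2 (log2 fold change 0.53 ± 0.15 SE, edgeR adjusted p = 0.0251). PNO1 (chromosome 2, 68157844 to 68176238, plus strand), which acts in late 40S maturation, stood at 42.8, 42.2 and 36.3 CPM in control replicates 1 to 3 and 49.2, 51.0 and 53.1 CPM in GPT1 replicates 1 to 3, without overlap (log2 fold change 0.34 ± 0.10 SE, edgeR adjusted p = 0.0331). WDR43 (chromosome 2, 28894643 to 28948222, plus strand), a component of the small subunit processome that is also called UTP5, stood at 112, 126 and 153 CPM in control replicates 1 to 3 and 89.4, 109 and 91.1 CPM in GPT1 replicates 1 to 3. It was lower in every GPT1 library (log2 fold change -0.43 ± 0.12 SE, edgeR adjusted p = 0.0266). The other 5 had estimates from 0.00 to 0.18 and did not pass. They were BYSL, which is needed for 40S maturation (0.18 ± 0.11), NOP14 (0.17 ± 0.09), RRP12, which is needed for subunit export (0.08 ± 0.10), UTP4, the gene of the protein cirhin (0.07 ± 0.08), and the scaffold gene UTP20 (0.00 ± 0.13). Of NOP14's exonic bases 17.1% lie opposite NOP14-AS1, and without a stated strand setting the reads of such a pair cannot be told apart.

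For the large subunit, 2 of 11 genes rose, beside 10.5% higher among all tested genes. PPAN (chromosome 19, 10106289 to 10111634, plus strand), which is required for 60S assembly, stood at 5.14, 5.52 and 4.53 CPM in control replicates 1 to 3 and 9.50, 8.69 and 12.03 CPM in GPT1 replicates 1 to 3. It was about doubled, and the lowest GPT1 library was well above the highest control (log2 fold change 0.99 ± 0.16 SE, edgeR adjusted p = 0.00255). PPAN was also the called gene with the lowest level, with 98 to 174 counts in the controls and 265 to 368 with GPT1. Of its exonic bases 59.8% are shared on the same strand with other genes, mainly with the readthrough gene PPAN-P2RY11, which has 0 counts in every library, so its level is uncertain. P2RY11, the purinergic receptor gene just downstream, went from 3.51 ± 0.32 to 7.04 ± 0.10 CPM (log2 fold change 0.997 ± 0.14 SE, edgeR adjusted p = 0.0011), a similar value in the same libraries. NIP7 (chromosome 16, 69337996 to 69343111, plus strand), a factor of 60S assembly and precursor processing, stood at 59.6, 64.3 and 63.9 CPM in control replicates 1 to 3 and 78.0, 78.2 and 81.4 CPM in GPT1 replicates 1 to 3. Its libraries were tightly grouped (log2 fold change 0.34 ± 0.08 SE, edgeR adjusted p = 0.0172). Of its exonic bases 20.2% lie opposite exons of COG8, and for NHP2 27.4% lie opposite RMND5B, so the levels and calls of both are uncertain without a stated strand setting. COG8 itself had 1071, 1048 and 681 counts in control replicates 1 to 3 and 1410, 1449 and 1416 with GPT1, and its part in the NIP7 value was not tested.

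The other 9 genes of 60S assembly did not pass. NOP16 and RRS1 were separated between the groups, at 72.9 ± 6.84 and 83.5 ± 3.57 CPM and at 48.0 ± 6.44 and 56.8 ± 2.46 CPM, without passing (0.19 ± 0.09 and 0.24 ± 0.11). Both act in 60S assembly, and RRS1 passed without control replicate 2 (edgeR adjusted p = 0.0368). Among all tested genes 43.4% were separated between the groups. Of NOP16's exonic bases 19.95% lie opposite exons of other genes, so its level is uncertain without a stated strand setting. PES1 and WDR12, which form the PeBoW complex with BOP1, had values of 0.11 ± 0.09 and -0.04 ± 0.09. WDR74 (0.24 ± 0.12), MRTO4 (0.16 ± 0.10), a homolog of the ribosomal stalk protein P0, RRP1B (0.11 ± 0.08) and the helicase gene DDX18 (-0.16 ± 0.12) overlapped between the groups. NOP2, a ribosomal RNA cytosine methyltransferase, was counted 22, 12 and 11 times in control replicates 1 to 3 and 20, 18 and 14 times with GPT1, far below the other 34. Of its exonic bases 54.4% are shared with the same-strand gene AC006064.6, which is listed with 0 counts in all 6 libraries. No source used here names the counting tool, and the part of this overlap in the low count was not tested, so no level is drawn from it.

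**Figure D2:**
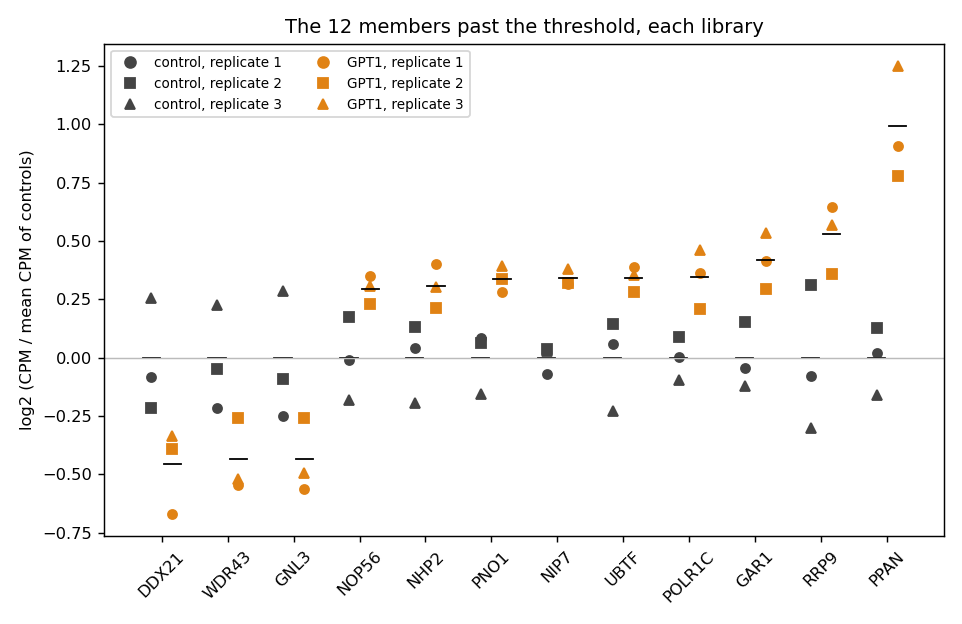
Level of the 12 called genes in every library, as log2 of CPM over the mean CPM of the 3 controls (grey, controls; orange, GPT1; shapes, replicate number; bars, group means). The groups are apart for each gene, and control replicate 3 (grey triangle) is the control farthest from the GPT1 libraries for 11 of 12.

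The calls changed when single libraries were left out, and most without control replicate 1 or GPT1 replicate 1 or 3. Control replicate 3 was the control farthest from the GPT1 group in 8 of the 9 genes that rose and in all 3 that fell, and GPT1 replicate 2 was the GPT1 library nearest the controls in 7 and 2 of them. The spread was wider among controls, with a larger SD than in the GPT1 libraries for 26 of the 35 genes and a median coefficient of variation of 11.3% against 6.54%. Without control replicate 1, 1 gene was called higher (PPAN) and 3 lower (GNL3, WDR43 and NOP58). All tested genes gave 991 higher and 1574 lower calls in that fit (14.2% called, against 25.1% with all 6 libraries). Without GPT1 replicate 1, and likewise without GPT1 replicate 3, PPAN was the single gene of the 35 still called and none was called lower (edgeR). Calls over all tested genes dropped as well in those fits, to 645 higher and 941 lower (8.8% called) and to 613 and 830 (7.98%). Without control replicate 3, 7 genes were called higher and 2 lower, NOP56, NHP2 and GNL3 no longer passing. Without control replicate 2 these counts were 10 and 4, and without GPT1 replicate 2 they were 9 and 4. Over all tested genes, 1796 were higher and 2185 lower without control replicate 3 (22.1% called). The values were 1970 and 2937 without control replicate 2 (27.1%), and 1946 and 2651 without GPT1 replicate 2 (25.5%). The median log2 fold change of the 35 genes stayed between 0.08 and 0.18 over these 6 settings.

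**Figure D3:**
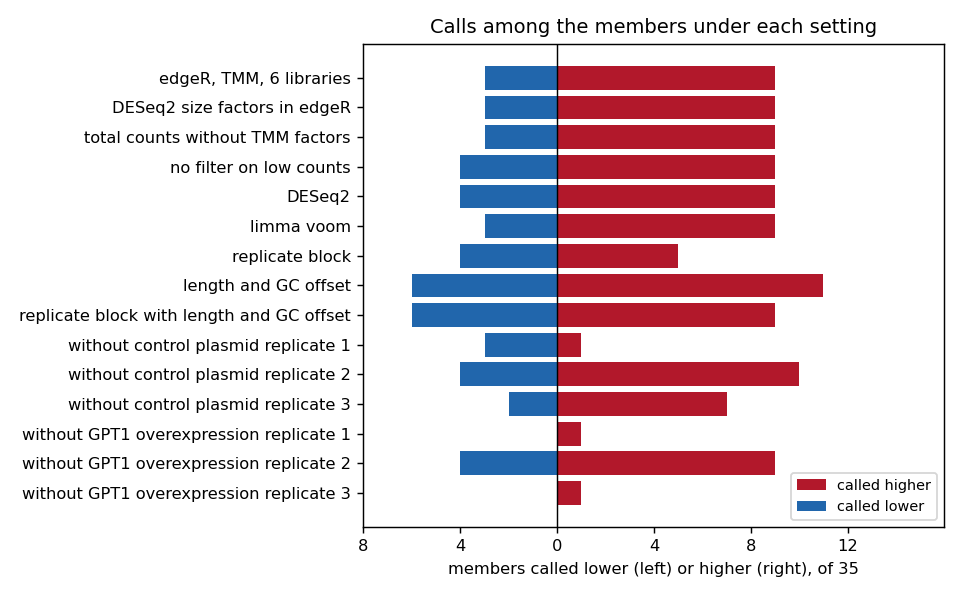
Number of the 35 genes called higher (red, right) or lower (blue, left) in the GPT1 libraries under each setting. The edgeR result on 6 libraries gives 9 and 3, and the bars shorten to 1 and 0 without GPT1 replicate 1 or 3. Of all tested genes 25.1% were called with 6 libraries, 8.8% without GPT1 replicate 1 and 7.98% without GPT1 replicate 3.

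Among the 35 genes the estimates followed the base composition of the transcripts. Across them, the log2 fold change had a Spearman correlation of 0.62 with the GC content of the longest transcript and -0.36 with its length, given as a description over 35 genes of the same 6 libraries. Across 17436 tested genes the values were 0.31 and -0.33. Of the 17 genes over 50% GC, 16 had an estimate above 0, and of the 7 under 42% GC, 6 had one below 0. The 3 genes that fell had a median GC content of 41.1% and the 9 that rose one of 50.9%. PNO1 rose at 41.6% GC, and FBL, at 54.3%, was the GC-rich gene with an estimate below 0. Replicates differed in this among themselves, since the deviations of control replicates 1 to 3 from the mean correlated across all tested genes with GC content at -0.03, 0.08 and -0.52 and those of GPT1 replicates 1 to 3 at 0.47, -0.12 and 0.27.

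An offset for length and GC content in each library changed which of the genes passed. With it 11 genes were called higher and 6 lower, while 15.8% and 18.6% of all tested genes were called. Of the 9 higher genes 8 kept the call, NHP2 losing it (log2 fold change 0.07, adjusted p = 0.270, edgeR with the offset), and all 3 lower genes kept it. POLR1A (0.28), UTP20 (0.28) and WDR12 (0.28, against -0.04 without the offset) were now called higher. FBL (-0.32), NOP58 (-0.52) and NPM1 (-0.21) were now called lower. PPAN stood at 0.83, RRP9 at 0.36, PNO1 at 0.36 and DDX21 at -0.26 on the log2 scale. The correlation with GC content among the 35 genes was 0.24 and that with length 0.20 after the offset, and their median was 0.06. With the offset, RNA polymerase I thus had 3 of 4 genes higher (POLR1A, POLR1C and UBTF). The group of abundant or multifunctional nucleolar proteins had 3 of 5 lower (NPM1, GNL3 and DDX21).

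**Figure D4:**
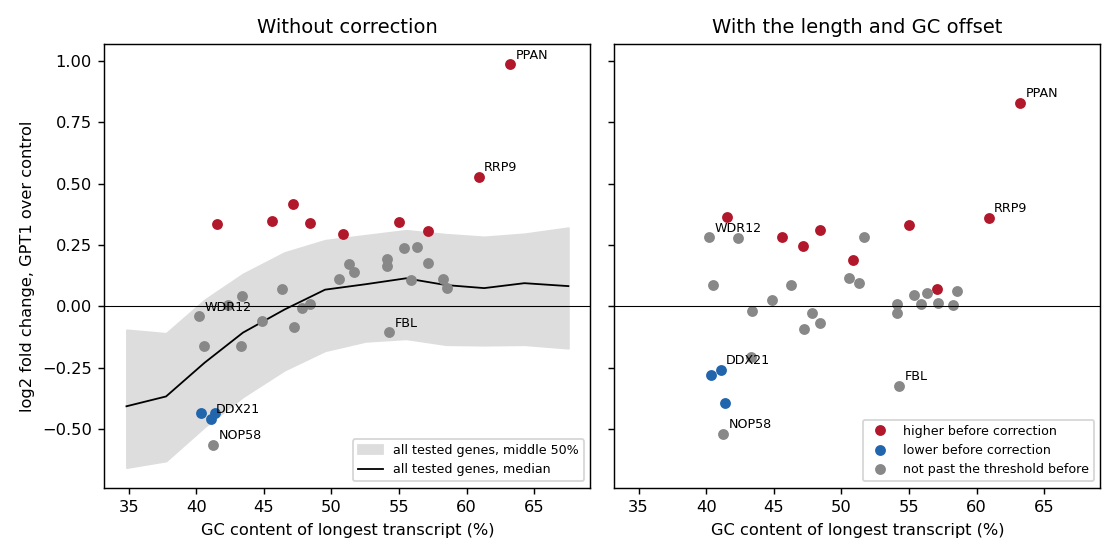
Log2 fold change of the 35 genes against the GC content of the longest transcript, without correction (left, with the median and middle 50% of all tested genes) and with the length and GC offset (right). Colours give the call before correction. On the left the points rise with GC content along with all tested genes (correlation 0.62 over the 35), and on the right WDR12 has moved above 0 and FBL further below it.

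7 of the 35 genes also carry small nucleolar RNA genes within them, 25 in all by GENCODE 29, whose products guide ribosomal RNA modification or processing. These hosts were NOP56, NOP58, DKC1, NCL, GNL3, WDR43 and PPAN. 2 of them rose (NOP56 and PPAN), 2 fell (GNL3 and WDR43) and 3 did not pass, so hosts were found in each class. Among all tested genes 10.5% were higher and 14.6% lower. The values are those of the host transcripts, and no small nucleolar RNA level is drawn from these mRNA libraries.

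Other genes of the pathway were counted list by list, next to the 10.5% higher and 14.6% lower among all tested genes. Of 50 other small subunit factors 10 rose (20%) and 3 fell (median log2 fold change 0.12). EMG1, a ribosomal RNA methyltransferase, rose from 80.4 ± 4.59 to 114 ± 7.89 CPM (0.50 ± 0.09 SE), and NOP9 from 83.2 ± 8.18 to 113 ± 6.02 CPM, while ESF1 fell from 22.3 ± 9.17 to 8.90 ± 2.52 CPM (-1.32 ± 0.27). Of 50 other large subunit factors 6 rose (12%) and 3 fell (median 0.03), close to the shares over all tested genes for rises. NOL9, a polynucleotide kinase of precursor processing, rose from 27.2 ± 0.393 to 40.4 ± 3.70 CPM and so did TEX10 (48.7 ± 1.32 to 64.2 ± 2.40 CPM) and the SUMO protease gene SENP3 (38.1 ± 8.29 to 59.5 ± 6.86 CPM). All 3 belong to 1 complex that acts in 60S maturation, and its other members LAS1L (0.00 ± 0.09), PELP1 (0.25 ± 0.10) and WDR18 (0.23 ± 0.12) did not pass. Leaving out single libraries changed the summed calls of these 100 genes from 16 higher and 6 lower (25.1% of all tested genes called). They were 6 and 6 without control replicate 1 (14.2% of all tested genes) and 22 and 10 without control replicate 2 (27.1%). Without GPT1 replicate 1 they were 3 and 1 (8.8%), and without GPT1 replicate 3 they were 2 and 1 (7.98%). NOP9 and SENP3 did not pass without GPT1 replicate 1 or 3 (adjusted p up to 0.0594 and 0.0695, edgeR), nor TEX10 without GPT1 replicate 3 (0.0616).

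Smaller groups of the machinery gave the following values. Of 12 other RNA polymerase I genes, POLR1G (34.4 ± 4.93 to 48.3 ± 0.972 CPM) and POLR1H (25.2 ± 2.72 to 35 ± 2.44 CPM) rose and POLR1F fell (56.2 ± 19.8 to 33.1 ± 8.02 CPM). POLR3G, a subunit of RNA polymerase III, fell (17.6 ± 4.75 to 8.89 ± 1.15 CPM). Of 11 other snoRNP proteins and assembly factors 1 passed, RPAP3, a co-chaperone of snoRNP assembly, which fell (41.0 ± 11.6 to 27.2 ± 5.15 CPM). Of 24 genes of the exosome, RNase MRP and related nucleases 5 rose and 2 fell, among them the exosome gene EXOSC6 (64.6 ± 9.43 to 99.1 ± 4.08 CPM) and the RNase MRP genes POP4 (36.6 ± 3.16 to 51.6 ± 1.39 CPM) and POP1 (16.5 ± 1.33 to 22.6 ± 0.635 CPM). Without GPT1 replicate 1 or 3, POLR1G, POLR1H, POLR1F, RPAP3 and POP1 missed the threshold (highest edgeR adjusted p 0.0663, 0.0859, 0.124, 0.155 and 0.0797). The same held for POLR1H and POP1 without control replicate 1 and for RPAP3 without control replicate 3.

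**Figure D5:**
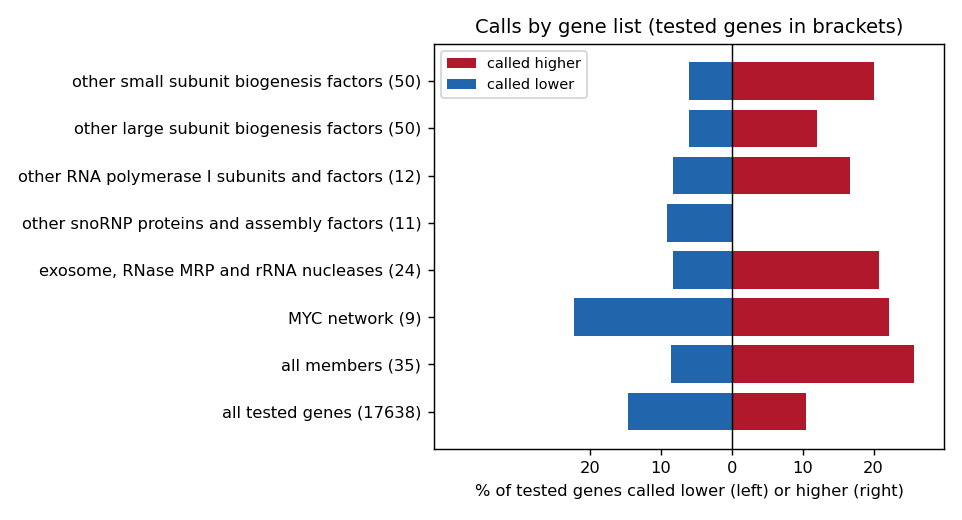
Share of tested genes called lower (blue, left) or higher (red, right) in the GPT1 libraries for 6 other lists of the pathway, the 35 genes (25.7% higher, 8.57% lower) and all 17638 tested genes (10.5% higher, 14.6% lower). Numbers in brackets are tested genes per list, and lists of under 12 genes move by many percent with a single call.

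MYC itself was lower in the GPT1 libraries, and its part in the values of the 35 genes was not tested. MYC went from 381 ± 26.9 to 251 ± 9.27 CPM (log2 fold change -0.60 ± 0.08 SE, edgeR adjusted p = 0.0010), whereas its dimer partner MAX rose from 82.2 ± 7.66 to 102 ± 6.63 CPM (0.31 ± 0.10, adjusted p = 0.0375). Of 9 genes of the MYC network, MXD4, a MAX-binding repressor, rose as well (95.0 ± 13.9 to 126 ± 8.81 CPM) and MXI1, another, fell (75.8 ± 6.57 to 52.6 ± 3.06 CPM). MAX and MXD4 lost the call when control replicate 1 or GPT1 replicate 1 or 3 was left out, as did MAX without control replicate 3 (edgeR adjusted p up to 0.165 and 0.102). CDKN1A, an inhibitor of cyclin-dependent kinases, rose from 167 ± 19.7 to 270.0 ± 25.04 CPM (0.69 ± 0.10, adjusted p = 0.0019), and RPL5 and RPL11, the ribosomal proteins that assemble with 5S RNA, did not pass. No ribosomal RNA, protein or growth measurement is part of these files.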

How the data were processed

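The authors deposited 1 table of raw counts for all 6 libraries, by Ensembl gene. Per the submitters' processing notes, HISAT2 2.0 and the GRCh38 build were used. No source used here gives the counter, the gene models behind it or how it treated strand. Of its 60664 genes, 60463 had a symbol, and 17638 passed edgeR's filterByExpr. Counts were scaled with TMM factors and tested with edgeR's quasi-likelihood test (edgeR 4.0.16, R 4.3.3) on 3 libraries per group, with Benjamini-Hochberg adjustment over all tested genes and a threshold of 0.05. Gene positions, transcript lengths and GC contents came from GENCODE 29, and upstream sequences from RefSeq. All 35 genes are named, with every library's value for those called and for the 3 most abundant others (NOP58 was added to these after its values were seen). Of each other list the 3 called genes with the smallest adjusted p are named, as well as MYC, MAX, GPT and 8 marker genes. Some results under this rule are not reported here. The genes, lists and motifs were chosen with earlier results of these data known. P2RY11, AC006064.6, COG8, RMND5B, NOP14-AS1, LAS1L, PELP1, WDR18, RPL5 and RPL11 were named after their values were seen. Alternatives were DESeq2 1.42.0, its size factors, total counts, limma 3.58.1 voom, no filter, the replicate number as a block, a smooth offset for length and GC content per library (mgcv 1.9.3), and leaving out each library.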

Additional observations from a re-analysis of the deposited data

How the results depend on the processing

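Of 490 values, 35 genes under 14 alternatives, 429 kept their side of the threshold, 42 lost the call, 17 gained it and 2 passed with the opposite sign. A change of sign was not counted where neither fit passed, as for DDX18 (-0.16, and 0.09 with the length and GC offset). PPAN was called in all 14. DESeq2's size factors, total counts and limma voom gave the same 9 higher and 3 lower genes, and DESeq2 gave 9 and 4. Of all tested genes 25.5%, 24.4%, 25% and 22.6% were called in these fits, in this order. WDR12, at -0.04, stood at 0.28 with the length and GC offset (edgeR adjusted p = 0.0293) and at 0.29 with offset and block (0.0474). The cause was not tested. Lower calls among the 35 were 6 with the offset and 6 with offset and block. Higher calls among the 100 other subunit factors were 28 with the offset (16 without). Of all 17638 tested genes 2786 were higher and 3286 lower with the offset, and 2271 and 2798 with offset and block. Without a filter 12 of the 100 other factors were lower (6 with it), beside 3299 of 31515 tested genes (2572 of 17638 with it). No label says whether a replicate number marks a shared batch. The deviations of same-numbered libraries correlated at 0.44, -0.66 and -0.18. Those of control replicate 2 and GPT1 replicate 1 correlated at 0.67, and those of control replicate 3 and GPT1 replicate 2 at 0.78. Such deviations, taken within groups of 3, cannot show whether the samples were paired. With the replicate block 5 of the 35 genes were higher, 4 lower, and 9 other factors were higher. Of all 17638 tested genes 1416 were higher and 2470 lower with the block. Leaving out single libraries gave 613 to 1970 higher and 830 to 2937 lower genes of all tested, 1 to 10 higher and 0 to 4 lower of the 35, and 2 to 22 higher and 1 to 10 lower of the other factors. With 3 libraries per group and most differences under 0.2 on the log2 scale, a missed threshold does not show equal levels.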
